A study of Rattus norvegicus with 2 samples.

Results

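Ratios of HIP to wild-type signal were read for all array probes of 8 heat shock protein genes: Hsp90aa1, Hsp90ab1, Hspa8, Hspa1a, Hspa4, Hspd1, Hspe1 and Hspb1. A probe is one oligonucleotide of the array's design, printed in 1 or more spots. The members were the gene spots whose array name, without a suffix for predicted genes, was one of these symbols or an older one, such as Hspca for Hsp90aa1 and Hspcb for Hsp90ab1. This gave 20 of 41012 gene probes, in 38 of 43379 gene spots. HIP rats (genotype label Human IAPP transgenic) make the human form of islet amyloid polypeptide from a transgene, which a rat insulin promoter drives in beta cells. The comparison group was nondiabetic wild-type rats, and the study asked about islet inflammation, duct cell proliferation and pancreatitis in type 2 diabetes. Each of 2 two-colour arrays paired 1 wild-type extract (Cy3) with 1 HIP extract (Cy5). Tissue, age and further treatment of the animals are not stated in the labels used here. Nothing in the labels says that the 2 extracts of a genotype came from separate animals, so the p-values reflect no more than the spread among these extracts, part or all of which may be technical. Because the dyes were not swapped, genotype and dye cannot be told apart.

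Heat shock proteins are molecular chaperones that bind unfolded proteins and help them fold, cross membranes or be degraded. The cytosolic Hsp70 proteins work in cycles of ATP binding and hydrolysis with J proteins and nucleotide exchange factors, and pass many clients on to Hsp90. In mitochondria a chaperonin cage built of Hspd1 (Hsp60) and its lid Hspe1 (Hsp10) folds imported proteins, and small heat shock proteins such as Hspb1 hold unfolded proteins without using ATP. Many of these genes are induced by heat shock factor Hsf1, which binds heat shock elements, inverted repeats of the short unit GAA. Beta cells that make human islet amyloid polypeptide have been studied for stress from misfolded protein.

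Heat shock elements before the start sites are shown because they are what several of these genes share outside the array. Promoter sequence was taken from RefSeq (build GRCr8), where 7 of the 8 genes were matched. The gene without a match is one of Hsp90aa1, Hsp90ab1, Hspa1a and Hspa4, and it was not searched. For these genes, the lack of a named motif is therefore not read as absence. The search used the 250 bases before each start on both strands. A motif of 3 alternating units, GAA, TTC and GAA, with any 2 bases between neighbours, or its reverse complement, occurred in 222 of 33469 promoters (0.663%). It was found for Hspa8, Hspd1 and Hspe1. The shorter GAANNTTC, its own reverse complement and contained in the longer motif, occurred in 7.23% of promoters and was found for those 3 genes and Hspb1. The shorter TTCNNGAA, also its own reverse complement and overlapping the others, occurred in 7.48% and was found for Hspa8, Hspd1 and Hspe1. Hspd1 and Hspe1 lie head to head with 289 bases between their starts, so their windows share 211 bases and 1 run of units. That shared stretch is printed on the strand of Hspe1, and capitals mark motif matches in all 3 sequences.
Hspa8, GRCr8 chr8:50080284-50080494, plus strand: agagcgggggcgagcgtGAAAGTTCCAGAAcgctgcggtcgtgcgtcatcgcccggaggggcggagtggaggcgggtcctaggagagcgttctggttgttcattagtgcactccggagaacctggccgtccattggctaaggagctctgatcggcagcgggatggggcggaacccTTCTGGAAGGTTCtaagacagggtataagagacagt
Hspd1 and Hspe1, GRCr8 chr9:64084077-64084287, plus strand: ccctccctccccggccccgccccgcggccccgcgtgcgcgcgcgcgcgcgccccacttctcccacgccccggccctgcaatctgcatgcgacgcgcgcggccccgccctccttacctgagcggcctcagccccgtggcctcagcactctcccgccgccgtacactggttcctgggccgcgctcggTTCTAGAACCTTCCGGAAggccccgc
Hspb1, GRCr8 chr12:26432396-26432446, minus strand: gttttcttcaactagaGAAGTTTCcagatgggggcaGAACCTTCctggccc
These matches are descriptions of the sequence, and binding was not measured here.

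The arrays differed little in signal except for the second wild-type extract. Between 83.5% and 85.0% of gene spots were well above background in the other 3 extracts and 73.6% in wild type 2, against 0 of 153 negative control spots, and 0 gene spots were saturated. Tests covered the 33650 of 41012 gene probes that, on each array, exceeded background clearly in Cy3, Cy5 or both. The SD of the log2 ratio over these probes was 1.35 on array 1 and 1.39 on array 2. By limma with Benjamini-Hochberg adjustment 0 of them passed an adjusted p of 0.05 (smallest 0.942), and 1099 had an unadjusted p under 0.05, where 1683 would be expected by chance. With 2 arrays an exact sign-flip test of 1 probe cannot give a p below 0.5.

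Of the 20 heat shock probes, 19 passed the filter, and 18 were well above background in all 4 extracts. Their ratios were large and ran in both directions. Compared with wild type, 3 of the 19 were at least 2-fold higher in HIP on both arrays, against 2.57% of all probes, and 5 were at least 2-fold lower on both, against 2.44%. A single one was at least 2-fold apart in opposite directions, against 5.43%. Counted at any size, 6 were higher on both arrays (26.9% of all probes), 8 were lower on both (22.9%), and the arrays disagreed for 5. In all, 0 of the 19 passed the adjusted threshold (0% of all probes) and 7 had an unadjusted p under 0.05, against 3.27% of all probes. Both HIP levels lay above both wild-type levels for 5 of the 19 (15.8% of all probes) and below both for 7 (15.1%). The median of the 19 mean log2 ratios was -0.93, against 0.02 over all probes. The median size of the log2 ratio, without its sign, was 1.59 on array 1 and 1.76 on array 2, against 0.51 and 0.45. The heat shock probes were bright: 9 of the 19 lay in the uppermost quartile of all tested probes by mean signal and 0 in the lowest. In that uppermost quartile 4.56% of probes were 2-fold higher and 3.93% were 2-fold lower on both arrays, and the median sizes were 0.68 and 0.82. The part of brightness in the members' count was not tested.

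**Figure D1:**
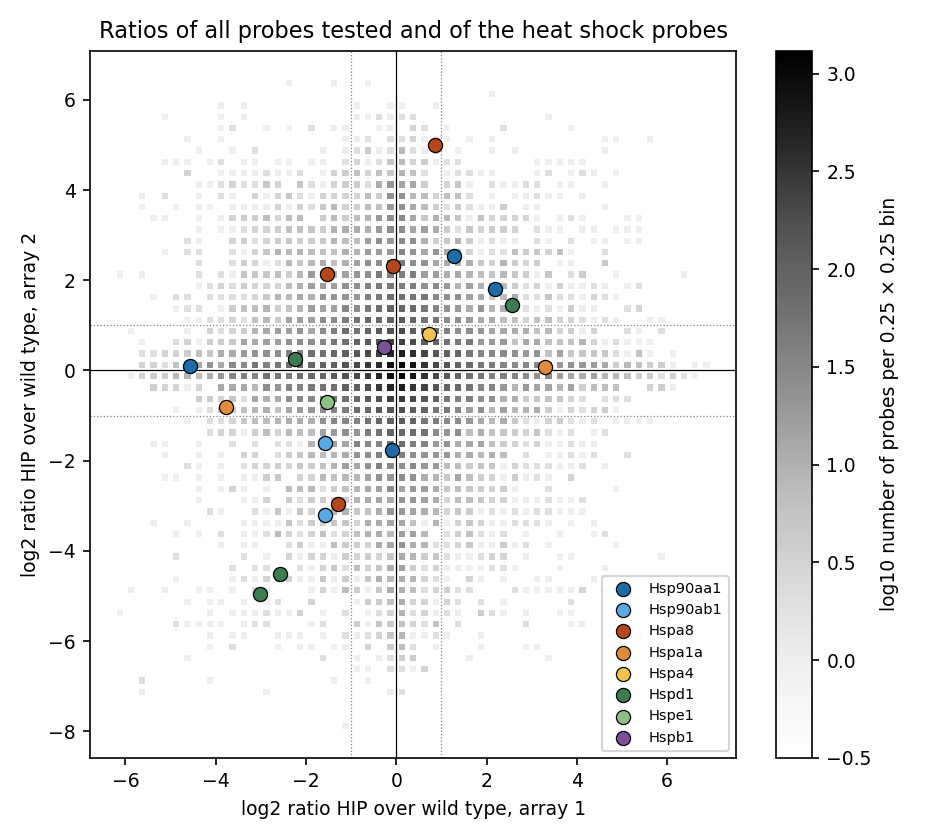
Log2 ratio of HIP over wild type on array 1 (x axis) and array 2 (y axis); grey squares give the number of tested probes per bin on a log10 scale and coloured points the 19 heat shock probes. The upper right corner beyond the dotted 2-fold lines holds 2 Hsp90aa1 probes and 1 Hspd1 probe, and the lower left corner holds both Hsp90ab1 probes, 1 Hspa8 probe and 2 Hspd1 probes.

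The 8 genes shared no common direction. Both Hsp90ab1 probes were lower in HIP on both arrays, the single Hspe1 probe was lower on both and the single tested Hspa4 probe was higher on both. In Hsp90aa1, Hspa8, Hspa1a and Hspd1, probes of 1 transcript gave opposite directions. Hspb1 was close to 0. Below, probes of a gene are numbered from the 3′ end of the transcript, levels are log2 signals after loess and adjustment of mean brightness between arrays, and a ratio is the HIP level minus the wild-type level of 1 array. A level is compared only between extracts of the same probe. Distances between probes are bases of the genome, with any introns included, between the 3′ ends of the positions that the array lists. The adjusted p (limma, Benjamini-Hochberg) was 0.942 for 17 of the 19 probes and 0.998 for Hspa8 probe 4 and Hspb1.

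**Figure D2:**
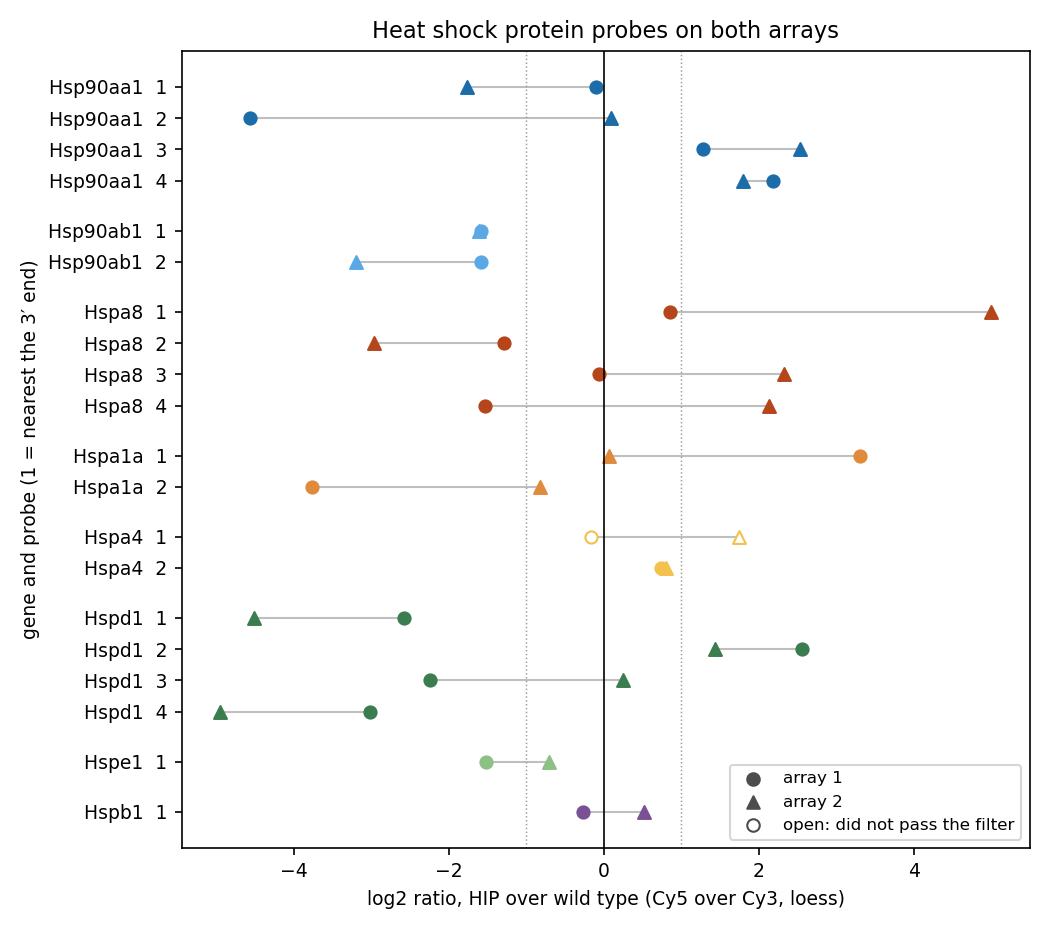
Log2 ratio of HIP over wild type (x axis) for each of the 20 heat shock probes (y axis), with array 1 as circles, array 2 as triangles, a grey line joining the arrays, and dotted lines at 2-fold. Hsp90ab1 lies on the left for both probes, while the probes of Hsp90aa1, Hspa8, Hspa1a and Hspd1 lie on both sides of 0.

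Hsp90 is a dimeric chaperone that matures kinases and steroid receptors, and Hsp90ab1 encodes its constitutive cytosolic form. Hsp90ab1 probe 1 (A_44_P116130) had levels of 12.64 in wild type 1, 11.05 in HIP 1, 12.86 in wild type 2 and 11.25 in HIP 2. Both wild-type levels were above both HIP levels, as for 15.1% of all probes. The log2 ratios of -1.59 and -1.61 (mean -1.60 ± 0.01, SD, n = 2 arrays) correspond to 3.01-fold and 3.05-fold lower in HIP. Probe 2 (A_44_P287194), 2240 bases upstream in the genome, had levels of 10.89 and 12.82 in wild type and 9.30 and 9.62 in HIP. Its ratios were -1.59 and -3.20 (mean -2.40 ± 1.14), again with no overlap between the genotypes. On array 1 the probes differed by less than 0.001 on the log2 scale. Before any dye correction probe 1 stood at -0.13 and 0.14, while the median of all probes was 0.78 and 1.19, so its direction is relative to the other probes of the array. With median centring in place of loess, its mean relative to the median of all probes was -0.98, and that of probe 2 was -1.89. A further array entry, a transcript model that RefSeq assigns to Hsp90ab1 although the array gives it no gene symbol, gave -0.999 and -2.29. It is 1 of 8 entries described on the array as similar to Hsp90ab1 and given further on, of which both arrays put HIP lower for 2 and higher for 4.

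Hsp90aa1 encodes the cytosolic Hsp90 whose synthesis rises on heat shock, and its 4 probes divided by position. The probes farthest from the 3′ end were higher in HIP. Probe 4 (A_44_P261874) had levels of 9.49 and 8.895 in wild type 1 and 2 against 11.68 and 10.69 in HIP 1 and 2, with ratios of 2.18 and 1.80 (mean 1.99 ± 0.27). Probe 3 (A_44_P114308) had 6.95 and 7.32 in wild type against 8.23 and 9.85 in HIP, with ratios of 1.29 and 2.53 (mean 1.91 ± 0.88). For both probes each HIP level lay above both wild-type levels (15.8% of all probes). The probes nearest the 3′ end were not higher. Probe 2 (A_44_P299870) had levels of 11.17 in wild type 1 and 6.61 in HIP 1, but 6.70 and 6.79 on array 2, where it was not well above background in wild type. Its ratios were -4.56 and 0.09, so its mean of -2.24 rests on array 1. Probe 1 (A_44_P135339) had 8.01 and 7.91 on array 1 and 9.34 and 7.58 on array 2, with ratios of -0.10 and -1.76. Probes 2 and 3 lie 1124 bases apart and differed by 5.85 on array 1, whereas probes 3 and 4, which lie 1450 bases apart, differed by 0.90 and 0.73.

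Hspa8 encodes the constitutive cytosolic Hsp70 (Hsc70), which also uncoats clathrin vesicles. Its 4 probes were all well above background in every extract. The direction turned between probes 1 and 2 on both arrays and between probes 2 and 3 on array 2, while probes 3 and 4 shared theirs. Probe 1 (A_44_P452492) had 10.75 and 11.62 in wild type 1 and HIP 1, and 8.36 and 13.36 in wild type 2 and HIP 2, with ratios of 0.86 and 5.002 (mean 2.93 ± 2.93). Probe 2 (A_43_P12417), 655 bases upstream, had 11.08 and 9.79 on array 1 and 13.92 and 10.95 on array 2, with ratios of -1.28 and -2.97 (mean -2.13 ± 1.19). Both wild-type levels of probe 2 lay above both HIP levels (15.1% of all probes), although probe 1 ran the other way on both arrays. On array 2 these neighbours differed by 7.97, the widest gap among all pairs of heat shock probes on either array. Probe 3 (A_44_P424367) had 11.82 and 11.76 on array 1 and 9.77 and 12.10 on array 2, with ratios of -0.06 and 2.33. Probe 4 (A_44_P396546) had 10.64 and 9.11 on array 1 and 9.35 and 11.49 on array 2, with ratios of -1.53 and 2.14. For both of these probes wild type 2 was low beside HIP 2, and the genotypes overlapped over the 4 extracts. On array 2 probes 3 and 4 differed by 0.19, and on array 1 by 1.47. The mean over the 4 probes was -0.50 on array 1 and 1.62 on array 2.

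Hspa1a encodes the stress-inducible Hsp70 and is the classic reporter of the heat shock response. Probe 1 (A_44_P1042876) was printed in 10 spots, and had mean levels of 6.65 in wild type 1, 9.96 in HIP 1, 6.77 in wild type 2 and 6.84 in HIP 2. HIP 1 alone was high, and the ratios were 3.30 (9.88-fold) and 0.07 (1.05-fold). Probe 2 (A_44_P109342), 1026 bases upstream, had 10.75 in wild type 1 against 6.99 in HIP 1, and 7.86 against 7.04 on array 2. There wild type 1 alone was high, and the ratios were -3.76 and -0.82. The same transcript was thus 9.88-fold higher by one probe and 13.6-fold lower by the other on array 1, with a difference of 7.07 on the log2 scale. In the authors' deposited table, which holds 1 entry for Hspa1a, the value was 3.94 on array 1 and -0.37 on array 2 on the log2 scale. The paralog Hspa1b, whose coding sequence is nearly identical, gave -2.65 and -0.91, and the testis-enriched neighbour Hspa1l gave 3.19 and -1.42. How far transcripts of Hspa1a and Hspa1b can be told apart by these probes is uncertain.

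Hspa4 encodes an Hsp110-type exchange factor that resets cytosolic Hsp70. Its probe 2 (A_44_P476830) had 11.69 in wild type 1, 12.42 in HIP 1, 10.84 in wild type 2 and 11.64 in HIP 2. HIP was higher than wild type on each array, with ratios of 0.73 and 0.80 (mean 0.77 ± 0.05, SD, n = 2 arrays). With median centring in place of loess, its mean relative to the median of all probes was 1.41. HIP 2 lay just below wild type 1, so the levels overlapped between arrays after loess. Probe 1 (A_42_P625181), 43227 bases away at the other end of the gene, had signal clearly over background in HIP 2 alone (8.34, against 6.11 in wild type 1, 5.94 in HIP 1 and 6.59 in wild type 2), and was not tested. Its ratios as read were -0.17 and 1.75.

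Hspd1 encodes the mitochondrial chaperonin Hsp60, and 3 of its 4 probes were much lower in HIP on array 1 while the other was much higher. Probe 4 (A_42_P651962) had levels of 9.61 in wild type 1, 6.60 in HIP 1, 11.91 in wild type 2 and 6.96 in HIP 2. Its ratios of -3.02 and -4.95 (mean -3.98 ± 1.37) were the lowest mean among the heat shock probes. Probe 1 (A_44_P426558) was alike, with 9.03 and 6.45 on array 1, 11.80 and 7.29 on array 2, and ratios of -2.58 and -4.51 (mean -3.55 ± 1.37). These 2 probes, 583 bases apart, differed by 0.44 on each array. Probe 3 (A_44_P535742), which lies between them, had 8.90 and 6.67 on array 1 and 7.14 and 7.39 on array 2, with ratios of -2.24 and 0.26. Probe 2 (A_44_P846589) had 9.23 and 8.85 in wild type against 11.79 and 10.29 in HIP, with ratios of 2.55 and 1.44 (mean 2.00 ± 0.79). The array's listing ends probes 1 and 2 at the same base, although it places only 39 and 10 bases of them there, and they differed by 5.14 and 5.95. Both HIP levels lay below both wild-type levels for probes 1 and 4 (15.1% of all probes) and above both for probe 2 (15.8%).

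Hspe1 encodes the Hsp10 lid of the same chaperonin and shares the promoter printed above. Its single probe (A_43_P11636) had 9.80 in wild type 1, 8.28 in HIP 1, 7.33 in wild type 2 and 6.63 in HIP 2. HIP was lower on each array, with ratios of -1.52 and -0.70 (mean -1.11 ± 0.58), but HIP 1 lay above wild type 2. A further array entry for the joint Hspd1 and Hspe1 gene sequence, noticed in the array's descriptions, gave -1.10 and -3.48. Of the 6 tested entries for this pair of genes, 4 were lower in HIP on both arrays (22.9% of all probes), 1 was higher on both (26.9%) and 1 differed in direction. The 6 include that joint entry, which is not among the heat shock probes as defined here.

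Hspb1 (Hsp27) encodes a small heat shock protein that binds unfolded proteins and actin. Its probe (A_44_P992908), printed in 10 spots, had mean levels of 10.08 in wild type 1, 9.82 in HIP 1, 8.33 in wild type 2 and 8.85 in HIP 2. The ratios were -0.26 and 0.52 (mean 0.13 ± 0.56), which was the mean nearest 0 among the tested heat shock probes.

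Replicate spots put a scale on these differences. The 10 spots of Hspa1a probe 1 ran from 3.22 to 3.46 on array 1 (SD 0.08) and from -0.05 to 0.30 on array 2 (SD 0.11). The 9 spots of Hspb1 left on each array without an outlier mark ran from -0.35 to -0.20 (SD 0.05) and from 0.47 to 0.59 (SD 0.05). For both probes the arrays did not overlap in any spot, by 3.24 and by 0.79 on average. Over all 216 tested probes with 10 spots the median SD between spots was 0.07 on array 1 and 0.08 on array 2, and the median gap between the arrays was 0.85. The scanner software's error model, which describes spots of 1 array and not differences between samples, gave a p-value under 0.01 for 16 of the 19 heat shock probes on array 1 and 15 on array 2, against 60.6% and 58.1% of all probes. It did so on both arrays, with loess ratios in the same direction, for 12 of the 19, against 17.7% of all probes. With loess ratios in opposite directions it did so for 1, against 18.9% of all probes.

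**Figure D3:**
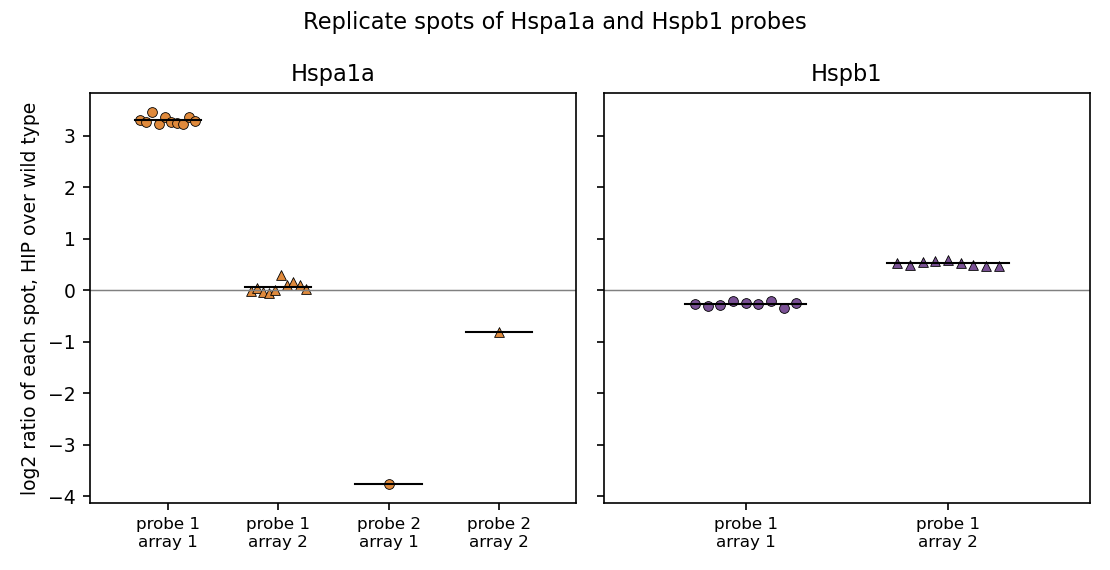
Log2 ratio of HIP over wild type (y axis) of each spot of the Hspa1a probes (left) and the Hspb1 probe (right), by probe and array (x axis), with circles for array 1, triangles for array 2 and bars at the mean. Spots of 1 probe on 1 array lie close together, while Hspa1a probe 1 lies 7.07 above probe 2 on array 1.

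Probes of 1 transcript disagreed by far more than spots of 1 probe. Among the 20 pairs of tested probes of the same heat shock transcript, the median difference of the log2 ratios was 1.81 on array 1 and 2.77 on array 2. Over all 3812 such pairs, from 2779 transcripts, it was 0.86 and 0.84. The same direction was seen in 9 of the 20 heat shock pairs on each array, against 53.8% and 52.9% of all pairs, and 4 of the 20 (20%) agreed in direction on both arrays, against 29.0% of all pairs. These were Hsp90aa1 probes 3 and 4, the Hsp90ab1 probes, Hspa8 probes 3 and 4, and Hspd1 probes 1 and 4. Across all pairs, which are not independent, Pearson's r between partner probes was 0.13 on array 1 and 0.15 on array 2. Among the 736 pairs at most 500 bases apart it was 0.34 and 0.44, and among the 2959 pairs farther apart it was 0.06 and 0.04. Of the 6 heat shock pairs at most 500 bases apart, 1 agreed in direction on both arrays, Hspa8 probes 3 and 4 at 439 bases, against 34.6% of all such near pairs. The other 5, Hsp90aa1 probes 1 and 2 and all Hspd1 pairs except 1 with 4 and 2 with 4, did not. Pairs share their extract and hybridisation, so these values describe the arrays and give no test.

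**Figure D4:**
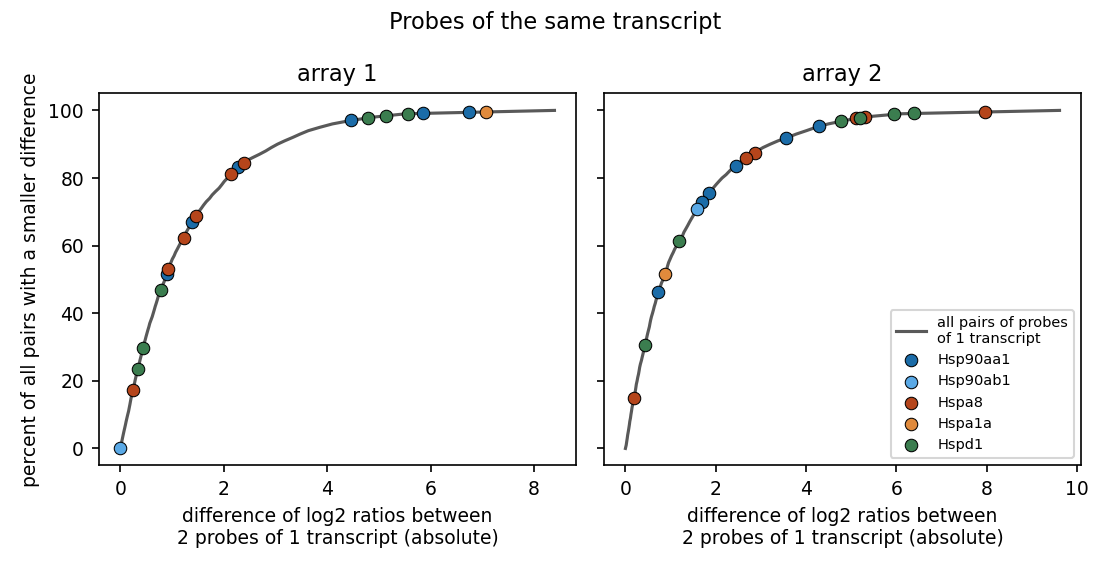
Absolute difference of the log2 ratios between 2 probes of 1 transcript (x axis) against the percent of all pairs with a smaller difference (y axis) for array 1 (left) and array 2 (right); the line is all 3812 pairs and the points are the 20 heat shock pairs. The widest heat shock pairs are Hspa1a at 7.07 on array 1 and Hspa8 at 7.97 on array 2.

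Several of these genes have many near-identical copies in the genome, and the array carries 31 entries, chosen by their descriptions after the data were seen, for sequences similar to Hspa8, Hsp90ab1, Hsp90aa1 or Hspd1. RefSeq (GRCr8) now names 19 of them as pseudogenes of these genes, and 30 passed the filter. Of 11 entries similar to Hspa8, 7 differed in direction between the arrays, with medians of -0.30 on array 1 and 1.97 on array 2. The entries named here were chosen after their values were seen. The pseudogene Hspa8-ps27 gave -1.44 and 2.02, and the entry RGD1561154 gave -1.55 and 2.04, close to the -1.53 and 2.14 of Hspa8 probe 4. The other transcript that probe 4 lists as a target is not among the 11 entries, and shared signal was not tested. Hspa8-ps34 gave 0.44 and 4.08, on the same side as Hspa8 probe 1, while Hspa8-ps35 gave 0.47 and -5.28.

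Among the 8 entries described on the array as similar to Hsp90ab1, both arrays put HIP higher for 4 and lower for 2, with medians of -0.14 and 0.26. The 4 include an entry that RefSeq now names Olr1208-ps, which gave 0.28 and 0.08. The 2 include the transcript model of Hsp90ab1 itself. Hsp90ab1-ps7 gave 0.65 and 2.38, Hsp90ab1-ps2 gave 0.27 and 1.77, and Hsp90ab1-ps3 gave 0.06 and 1.86, all on the other side from the Hsp90ab1 probes.

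Entries similar to Hspd1 varied among themselves, and those named here were chosen after their values were seen. Hspd1-ps5, which probes 1 and 2 both list as a target, gave 0.46 and -1.04, unlike either probe. Hspd1-ps2 gave -1.10 and -5.00, LOC291205 gave -0.86 and -4.87, and RGD1563524 gave -0.66 and -4.67, beside the -4.51 and -4.95 of probes 1 and 4 on array 2. Hspd1-ps7 gave 3.40 and 2.23, on the side of probe 2. Among the 8 tested, HIP was higher on both arrays for 2 and lower on both for 4. Among 3 entries similar to Hsp90aa1, probe 4 itself lists 2 as targets. One gave 3.06 and 1.22, on the side of probe 4, and the other gave 0.84 and -0.73. For 7 of the 20 heat shock probes, the array's own list of target transcripts names a transcript that stands elsewhere on the array under another name. They are Hsp90aa1 probe 4, both Hsp90ab1 probes, Hspa8 probe 4 and Hspd1 probes 1, 2 and 4. For the Hsp90ab1 probes that other name is the transcript model of Hsp90ab1 itself given above, and Hspd1 probe 4 lists RGD1563524. For the other 5, signal from the gene and from its listed copy cannot be told apart.

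**Figure D5:**
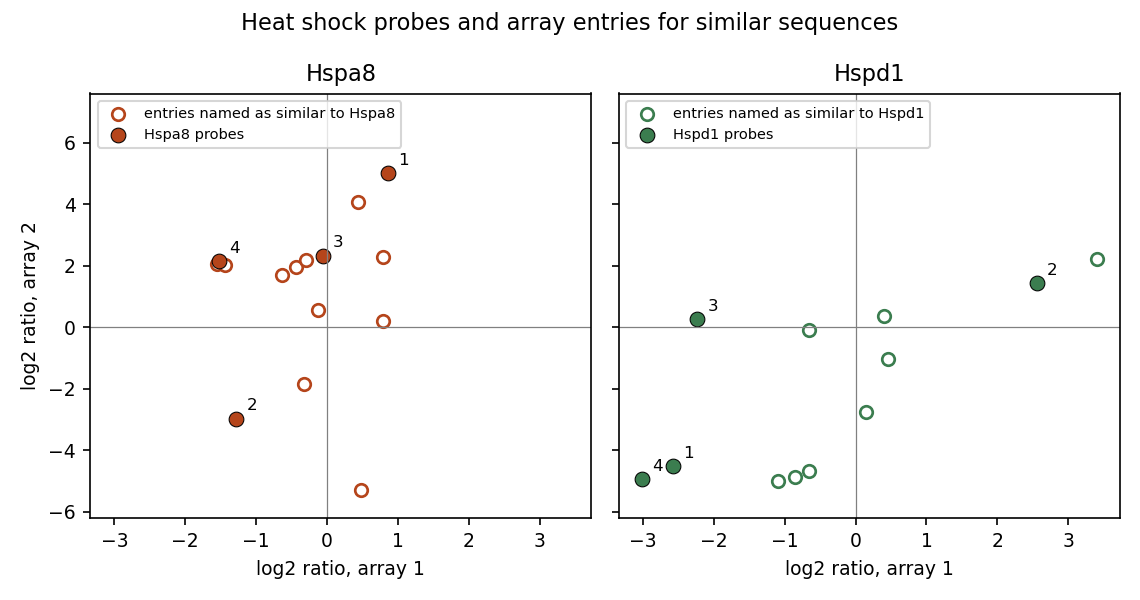
Log2 ratios of HIP over wild type on array 1 (x axis) and array 2 (y axis) for probes of Hspa8 (left) and Hspd1 (right), filled and numbered from the 3′ end, and for tested array entries described as similar to them, open. Around Hspa8 probes 3 and 4 lie open points near 2 on array 2, and level with Hspd1 probes 1 and 4 lie 3 open points near -5 on array 2.

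Other genes of the chaperone network were read for context, and the difference between them and the 8 genes was not tested. Of 78 further genes in 7 lists, 71 were on the array with 97 probes, and 86 probes passed the filter. By limma with Benjamini-Hochberg adjustment 0 of the 86 were called. HIP was higher on both arrays for 22 of the 86 (26.9% of all probes) and lower on both for 18 (22.9% of all probes), and the arrays disagreed for 46. Differences in direction between the lists were not tested. Just 1 was at least 2-fold higher on both and 2 were at least 2-fold lower, or 1.16% and 2.33% against the 2.57% and 2.44% of all probes given above. The median of the 86 mean log2 ratios was 0.11, against 0.02 over all probes.

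Dnajc5, the cysteine string protein of secretory vesicles, was the one 2-fold higher, at 1.20 and 2.38 (mean 1.79 ± 0.83, SD, n = 2 arrays). Dnajb5, an Hsp40 of the B class, was 2-fold lower by 1 probe at -3.03 and -2.81, while its other probe gave 0.67 and -0.24. Ppid, cyclophilin 40 of the Hsp90 complex, was 2-fold lower by 1 probe at -1.53 and -2.35, and its other probe, the brightest of the Hsp90 cochaperone list, gave 0.59 and 0.76. In that list of 20 tested probes, both arrays put HIP higher for 5 and lower for 6, against 26.9% and 22.9% of all probes. Among 24 probes of J proteins and exchange factors it was 8 higher and 3 lower. That list also holds an Hsp70 gene, Hspa5, which gave -1.94 and 3.64.

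The counts in the lists that follow stand against 26.9% of all probes higher and 22.9% lower on both arrays. For the other Hsp70 and Hsp110 chaperones (10 tested probes) both arrays put HIP higher for 0 and lower for 2. Their brightest probe, for Hspa12a, gave -1.40 and 2.32. TRiC, the cytosolic counterpart of Hsp60, had 12 probes, with 5 higher and 0 lower by both arrays, and its Cct2 gave 0.36 and 2.69. The small heat shock proteins had 9 probes, with 3 higher and 4 lower by both arrays, and Hspb7, a heart and muscle form, gave -0.60 and -0.67 by its brightest probe and 1.68 and 0.23 by its other. That first Hspb7 probe had a mean near 0 relative to all probes with median centring (0.01 and -0.09). The mitochondrial chaperones and proteases had 6, with 0 higher and 2 lower, and Hspa9, the mitochondrial Hsp70, gave -0.51 and 1.19. The heat shock factors and regulators had 5, with 1 higher and 1 lower, and Hmox1, the heme oxygenase induced by oxidative stress, gave -0.89 and 0.03.

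As the labels name no tissue, marker genes of pancreatic cell types were read on the same arrays. By limma 0 of them were called at an adjusted p of 0.05. Signal was well above background in all 4 extracts for 5 of 8 islet endocrine probes, 10 of 11 acinar, 6 of 10 ductal, 9 of 10 leukocyte, 5 of 6 endothelial and 7 of 8 stromal probes. The median log2 ratios on arrays 1 and 2 were 0.13 and -0.85 for 7 tested islet endocrine probes, 0.20 and 0.19 for 10 acinar, -0.24 and -0.26 for 8 ductal, 0.13 and -0.06 for 10 leukocyte, -0.37 and 0.02 for 6 endothelial, and 0.04 and -0.16 for 7 stromal probes. The acinar list holds the same amylase probe (-0.08 and 0.32) under both Amy2 and Amy2a3. Its counts and medians take that probe in under each name. The islet endocrine probes ran both ways. Of 7 tested, 3 were higher on both arrays and 3 were lower on both, against 26.9% and 22.9% of all probes. Among the lower, Ins1 gave -1.18 and -1.02, at least 2-fold lower on both arrays, and Ins2 gave -1.04 and -0.85. The tested Chga probe gave -0.06 and -1.63. Among the higher, Iapp gave 0.51 and 0.10, Ppy gave 0.93 and 0.19, and Sst gave 0.13 and 0.09. For Gcg the arrays disagreed, at 2.84 and -1.35. Iapp and Sst were not well above background in every extract. With median centring, Ins1 was -0.39 and -0.47 and Ins2 was -0.09 and -0.31 relative to the median of all probes. The part of these markers in the heat shock ratios was not tested, and fewer cells of a type and less RNA per cell cannot be told apart in such extracts.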

How the data were processed

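Signals came from 2 Agilent two-colour rat arrays (design 014879). Per the labels' protocols, mRNA was captured on magnetic beads and its cDNA amplified by PCR before labelling, which can change transcript proportions. Per the file headers, the authors quantified spots with Agilent Feature Extraction 9.5.1.1. The deposited scanner files hold the intensity of each spot and of its local background as scanned, a processed intensity (background-subtracted, detrended, dye-normalized), the log10 ratio of processed Cy5 over Cy3 and its p-value. The deposited series table holds log10 ratios. Of its 36734 entries matched to a gene probe, 89.5% equalled the scanner's log10 ratio within 2e-05 on both arrays, and the sources used here do not say how several probes or spots of a gene were combined. Its column medians were 0.01 and 0.00.

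With R 4.3.3 and limma 3.58.1, background was corrected by normexp (offset 50), ratios were loess-normalized within arrays with control spots at weight 0, outlier-marked spots were left out and spots of a probe averaged. The log2 ratios of probes that passed background clearly in 1 or both dyes of each array were tested against 0 by lmFit and eBayes (1 residual and 1.70 prior degrees of freedom), adjusted over 33650 probes. At least 2-fold means a log2 ratio of 1 or more. The members and gene lists were chosen with earlier results of these data known. Current names came from RefSeq (GRCr8). Named network genes were those with a probe 2-fold apart the same way on both arrays and the brightest of each list. The fit was tested on simulated data: it recovered the changed probes when the spread was small and the same for all, but none at the spread of these arrays. A count of 0 calls is therefore not read as absence of a difference. No source used here names the build behind the array's probe coordinates, so only distances between probes are printed.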

Additional observations from a re-analysis of the deposited data

How the results depend on the processing

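With 2 ratios per probe, no probe was called by limma under any setting tried: median centring, no normalization, scanner processed signals, other filters, the brightest probe per gene, a trended or robust prior, and the 4 channels as separate samples (0 in each, with 952 to 5588 probes under an unadjusted p of 0.05). The count of 8 heat shock probes at least 2-fold apart the same way on both arrays was also 8 with median centring, without normalization and with both other filters, and 10 with processed signals. With the brightest probe per gene it was 4 of 8. On 1 array alone it was 12 to 14. The split of higher and lower moved: 3 and 5 after loess, 5 and 3 with median centring, 6 and 2 without normalization, and 3 and 7 with processed signals. Over all probes the share 2-fold apart the same way was 5.0%, but 8.79% with median centring, 27.6% without normalization, 10.4% with processed signals and 28.0% to 30.5% on 1 array. Of those, 51.3% were higher in HIP after loess, 84.4% with median centring and 98.1% without normalization.

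Relative to the median of all probes, all 19 heat shock ratios kept their sign with median centring, which without normalization gives the same numbers by construction, and with processed signals. On that scale, means moved by over 1.5-fold with median centring for Hsp90aa1 probe 4 (2.56), Hsp90ab1 probe 1 (-0.98), Hspa8 probes 1 and 3 (3.53 and 1.76) and Hspa4 probe 2 (1.41). With processed signals they did so for Hsp90aa1 probe 3 (3.18), Hspa1a probe 1 (2.53) and Hspd1 probes 1 and 4 (-4.48 and -4.72). The mean of a gene's probes had the other sign for 5 of them: 0.18 for Hsp90aa1 against its probes 1 and 2, 0.56 for Hspa8 against probe 2, -0.30 for Hspa1a against probe 1, and -1.63 for Hspd1 against probe 2. The sign of the mean rested on 1 array for Hsp90aa1 probe 2 (-4.56 to 0.091), Hspa8 probe 3 (-0.062 to 2.33), Hspa8 probe 4 (-1.53 to 2.14), Hspd1 probe 3 (-2.24 to 0.26) and Hspb1 (-0.26 to 0.52). The ratios tested already pair 1 wild-type with 1 HIP extract on each array; the unpaired fit of the 4 channels also called 0 probes.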

Other observations

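The authors' deposited table carries 1 entry for each of the 8 genes. On the log2 scale the mean of both arrays there was 0.76 for Hsp90aa1, -1.93 for Hsp90ab1, 0.44 for Hspa8, 1.78 for Hspa1a, 1.08 for Hspa4, -0.74 for Hspd1, -1.66 for Hspe1 and 0.15 for Hspb1. For Hspd1 the authors' deposited table gives -1.49 on array 1 and 0.01 on array 2, although its tested probes ran from -4.95 to 1.44 on array 2. For Hspa8 it gives -0.43 and 1.31, against a range from -2.97 to 5.002 over its probes on array 2.

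Other entries of the array belong to the Hsp70 members or stand close to them, and were picked from their descriptions after their values were seen. An entry for the rat hsc73 gene gave -0.76 and 0.57. The name hsc73 is also used for the Hsc70 that Hspa8 encodes, though the array does not give this entry that symbol. An entry for Hsp70-3 gave 0.51 and -0.91, and Hspa2, a testis-enriched Hsp70, gave -1.29 and 0.14. An expressed sequence similar to Hsp90-beta gave -0.45 and -1.17, on the same side as both Hsp90ab1 probes. Of the 8 entries described as similar to Hsp90ab1, 4 were on the other side on both arrays, among them the entry now named Olr1208-ps.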
